A study of Mus musculus with 21 samples.

Results

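Elastic fibre and microfibril genes encode the fibrillin filaments outside the cell and the elastin laid on them, and 10 of them are described here in Nes low bone-marrow cells: the fibrillins *Fbn1* and *Fbn2*, the microfibril-associated glycoproteins *Mfap2*, *Mfap4* and *Mfap5*, elastin (*Eln*), and the fibulins *Fbln1*, *Fbln2*, *Fbln5* and *Efemp2* (fibulin-4). They were picked by name, as members of a matrix family, from the 26852 genes of the expression table, and all 10 had a row there. Fibrillins assemble into beaded microfibrils, elastin is deposited on this scaffold with the help of fibulins, and lysyl oxidases cross-link it. Microfibrils also tether latent TGF-β through the latent TGF-β binding proteins, so that the same matrix gives a tissue recoil and holds growth factor in store. In bone, fibrillins are made by cells of the osteoblast lineage and by marrow stroma, and the walls of arterioles are rich in elastin.

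The study asked how human acute myeloid leukemia (AML) changes the mesenchymal cells of the marrow it grows in. It also asked whether any of these changes can already be seen early in the disease. Nes low cells, which carry a weak green signal from a Nestin reporter, were sorted from Nestin+ NSG mice, an immunodeficient strain without lymphocytes of its own. HL60 or ML1, established human AML cell lines that release sLP-mCherry, were transplanted into unconditioned mice at 8 to 12 weeks of age. This red protein enters nearby cells, so that at the early stage stroma close to leukemic cells (ch+) could be sorted apart from stroma that had not taken it up (ch-). Late cells came from advanced leukemia without such a split, and ctrl cells from mice of the same strain without leukemia, whose age the labels give no number for. Of the 21 libraries, 3 were ctrl, 6 early ch-, 6 early ch+ and 6 late, and each leukemic group held 3 libraries of HL60 and 3 of ML1. The ML1 late libraries are called late in their titles and time points but unengrafted in their treatment label. They were kept as late, and each late call of the 10 genes against ctrl is also given for HL60 without them. Nothing says that libraries are separate mice, so p-values measure the spread between these samples, and, although both kinds of early cells came from the same marrow, no label ties a ch+ library to the ch- library of its mouse. The libraries carry numbers that run apart by group: 373 to 375 in ctrl, 397 to 399 in late HL60, 523 to 529 in early HL60, 538 to 546 in early ML1 and 581 to 583 in late ML1. What the numbers stand for is not given. If they follow cohorts, a difference between the lines, between leukemic and ctrl cells or between late and early cells cannot be told apart from one between cohorts, while ch+ and ch- libraries of a line have neighbouring numbers.

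The label was first checked against defining markers. *Cxcl12*, the chemokine of reticular stroma, lay between 14.89 and 15.57 in ctrl and between 15.95 and 16.44 in late cells, on the authors' log2 scale of normalized counts. *Lepr*, the leptin receptor of the same cells, ran from 12.24 to 13.06 in ctrl and from 14.29 to 14.81 in late. *Nes* itself had a mean of 7.39 ± 0.24 in ctrl (SD, n = 3) and 7.30 ± 0.52 in late (SD, n = 6). Although the extraction text of the labels speaks of CD31+ endothelial cells, the endothelial genes *Pecam1* (median 5.44 in ctrl, 4.65 in late) and *Cdh5* (6.37 and 5.93) were present at low values only. The markers thus fit mesenchymal cells, with blood and bone lineage genes that shift between groups as given beside the results.

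The table holds regularized log2 values, and differences below are differences of these values, 1 unit being a doubling. The sources differ on the base of the logarithm, and base 2 was taken because the highest value, 22.44, would be an impossible number of reads in base 10. The depth of each library is unknown, because whole reads could not be recovered, and the regularization understates changes of weakly expressed genes. With a mean of at least 3.32 (10 normalized counts), 12976 genes were tested in limma, and all 10 matrix genes were among them. A gene is said to have risen or fallen when its Benjamini-Hochberg adjusted p, taken over all tested genes, was under 0.1. Summed on the linear scale, normalized signal was 11.9, 12.8 and 14.2 megacounts in the ctrl libraries but 7.27 to 9.02 in the late ones. Bringing every library to the same total moved the median late difference of all tested genes from 0.02 to 0.71, so that every late difference is relative to the normalization chosen by the authors.

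Levels of different genes were compared per kilobase of exon. In ctrl cells *Fbn1* was first at 8.60 ± 0.31 (log2 normalized count per kilobase; mean ± SD, n = 3), followed by *Fbln5* at 7.72 ± 0.37, *Efemp2* at 7.34 ± 0.19 and *Mfap2* at 6.19 ± 0.23. *Fbn2* (5.78 ± 0.33), *Fbln2* (5.76 ± 0.54), *Fbln1* (5.21 ± 0.45) and *Mfap5* (5.18 ± 0.23) came next, and *Eln* (4.20 ± 1.23) and *Mfap4* (3.61 ± 0.38) last. Libraries of neighbours in this order overlapped except between *Fbn1* and *Fbln5* and between *Efemp2* and *Mfap2*. The first and the last gene lay 4.99 apart in ctrl, 6.17 in late HL60 and 8.47 in late ML1. In late ML1 cells *Fbn1* stood at 11.21 ± 0.07 per kilobase and *Mfap5*, then the last, at 2.74 ± 0.95.

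**Figure D1:**
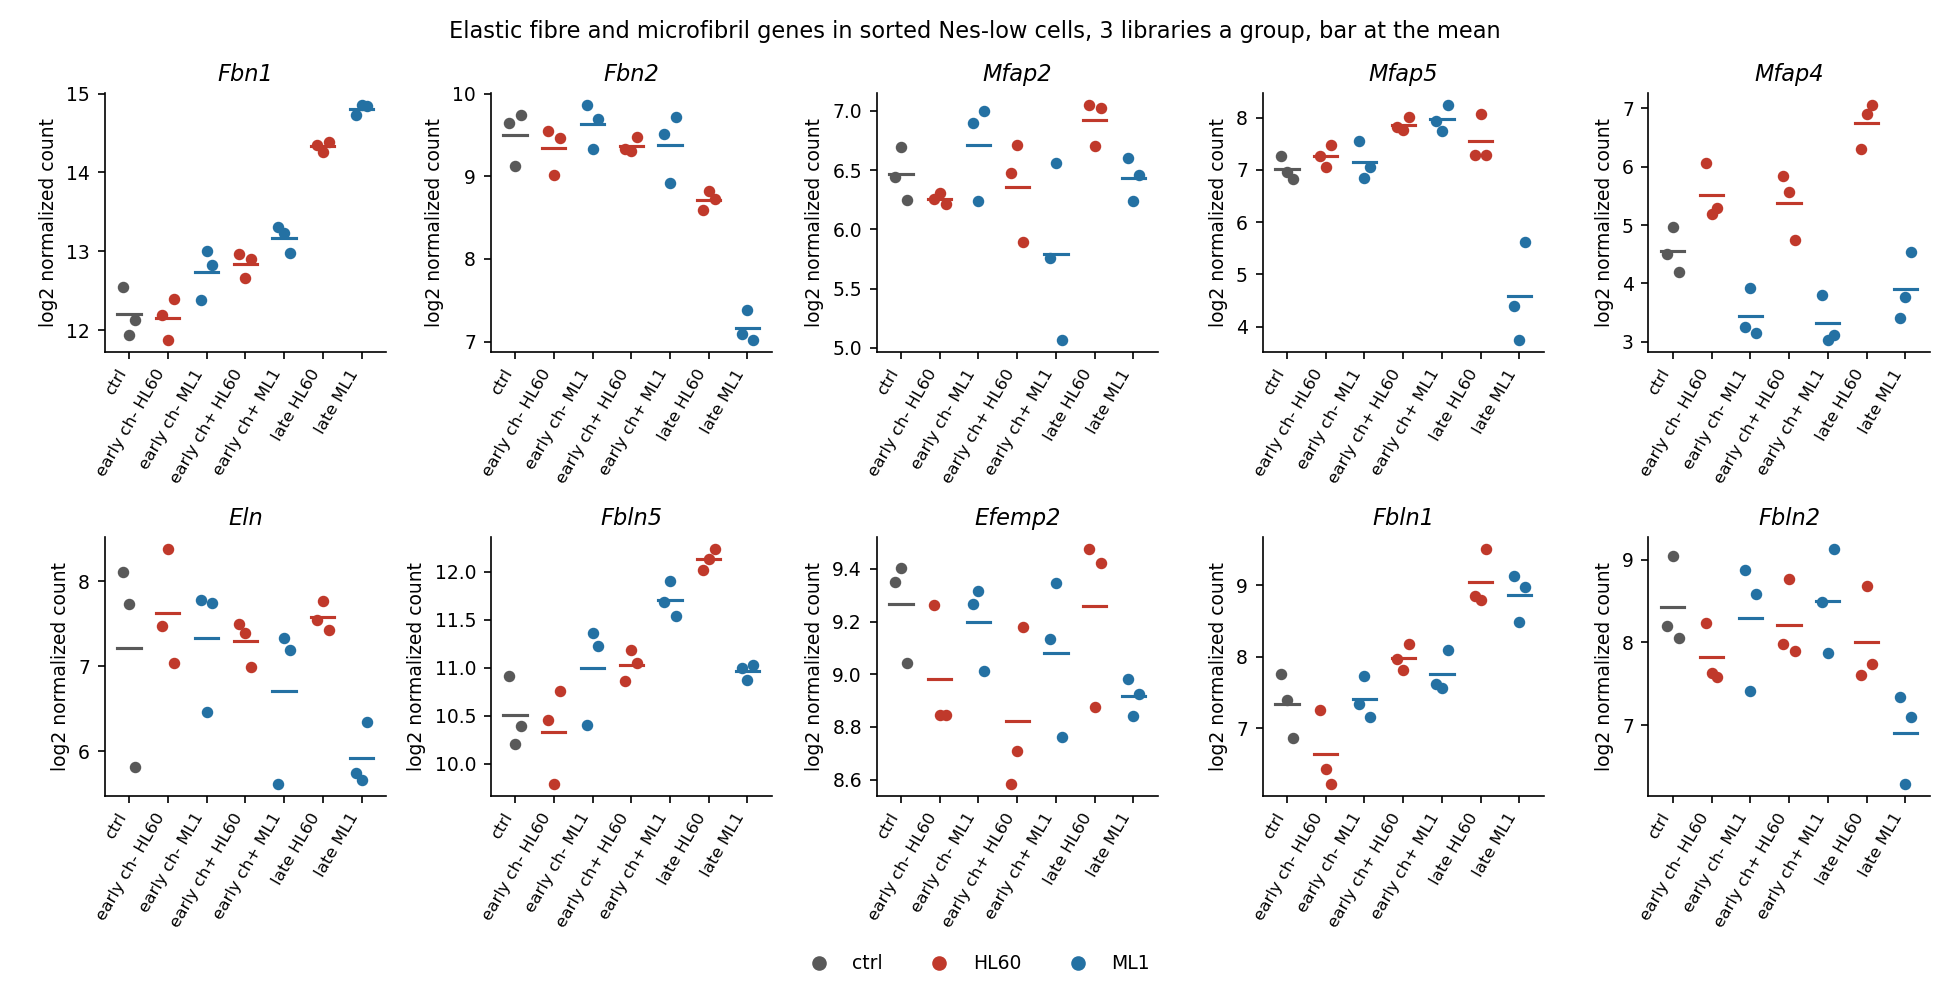
Log2 normalized count of each gene in every library, by group and cell line (ctrl grey, HL60 red, ML1 blue), with a bar at the mean of the 3 libraries. The 6 late libraries of *Fbn1* start at 14.26 and the 3 ctrl libraries end at 12.55. Late libraries of the cell lines overlap in *Efemp2* and *Fbln1* only. HL60 lies below ML1 in late *Fbn1* and above it in the other genes, such as *Mfap5* and *Mfap4*.

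Against ctrl, 5 of the 10 genes passed the test in late cells, a share to be read against 21.5% of all tested genes. *Fbn1*, *Fbln1* and *Fbln5* rose (10.2% of all genes rose) and *Fbn2* and, with a call that other fits ended, *Fbln2* fell (11.4% fell). The median absolute difference of the 10 genes was 0.96, beside 0.34 over all tested genes, while their median signed difference was 0.02, as it was over all genes. In late HL60 alone 5 of 10 passed (background 13.7%), 4 higher (6.46% of all genes) and 1 lower (7.24%), and in late ML1 alone 6 of 10 (background 22%), 2 higher (9.89%) and 4 lower (12.1%). With libraries brought to the same total, 6 of the 10 were higher in late, where 60% of all genes were, and 1 lower (3.98%). In late HL60 all 7 that passed were higher (39.7% of all genes were higher and 2.92% lower), and in late ML1 5 were higher (63%) and 2 lower (4.7%). With that scaling the counts of higher genes in late and late ML1 are thus near or under the background. In sorted bulk cells, more cells of a kind and more RNA per cell cannot be told apart.

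*Fbn1* encodes fibrillin-1, the main filament protein of microfibrils after birth. It stood at 11.94, 12.12 and 12.55 in ctrl. In early ch- cells it was 11.87, 12.19 and 12.39 with HL60 and 12.39, 12.83 and 13.01 with ML1. In early ch+ cells it was 12.66, 12.90 and 12.96 with HL60 and 12.97, 13.23 and 13.31 with ML1. Every ch+ library was therefore above every ctrl library, while ch+ and ch- libraries overlapped. The late values were 14.26, 14.35 and 14.39 with HL60 and 14.73, 14.85 and 14.85 with ML1. No late library overlapped with any other group, and those of the cell lines did not overlap with each other. Late cells were 2.36 above ctrl (95% interval 1.96 to 2.77, adjusted p = 1.76e-09), with 2.13 for HL60 (adjusted p = 7.76e-11) and 2.60 for ML1 (adjusted p = 7.07e-14). *Fbn1* rose also between early ch+ and late cells, by 1.56 (adjusted p = 2.1e-08). An exon stretch of 2442 bases (20.1% of the *Fbn1* exons) is shared with *Gm9913* on the opposite strand, whose values ran only from 2.16 to 4.33 over the 21 libraries.

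*Fbn2*, the fibrillin best known from developing tissue and from bone-forming cells, went the other way. Its ctrl values were 9.13, 9.65 and 9.74, and early cells stayed near them, at 9.01 to 9.86 in ch- and 8.92 to 9.72 in ch+. In late cells it was 8.59, 8.72 and 8.82 with HL60 and 7.01, 7.09 and 7.38 with ML1. All late libraries were below all ctrl libraries, and ML1 below HL60. *Fbn2* fell by 1.57 in late (95% interval -2.21 to -0.93, adjusted p = 0.000482), by 0.79 with HL60 (adjusted p = 0.0136) and by 2.34 with ML1 (adjusted p = 1.06e-09), and by 1.44 from early ch+ to late (adjusted p = 9.74e-05). The HL60 call was lost when libraries were brought to the same total (-0.22, adjusted p = 0.441). Per kilobase, *Fbn2* stood at 5.78 in ctrl and 3.44 in late ML1, where *Fbn1* stood at 8.60 and 11.21.

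Of the microfibril-associated glycoproteins, *Mfap2* (MAGP-1), which binds fibrillin along the filament, passed no test. Its means were 6.46 ± 0.23 in ctrl (SD, n = 3) and, with n = 6 each, 6.49 ± 0.36 for ch-, 6.08 ± 0.63 for ch+ and 6.68 ± 0.32 for late cells, and the libraries of all these groups overlap. By line, late HL60 (6.71, 7.02 and 7.05) lay just above every ctrl library (6.25 to 6.70) and above every late ML1 library. Late HL60 was 0.46 from ctrl (adjusted p = 0.519) and late ML1 -0.03 (adjusted p = 0.970). Over both lines the difference was 0.22 (95% interval -0.45 to 0.88), and with libraries brought to the same total the value for Mfap2, late against ctrl, became 0.91 (adjusted p = 0.0186), beside a median of 0.71 over all genes.

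*Mfap5* (MAGP-2), a second small fibrillin-binding glycoprotein, was 6.83, 6.96 and 7.27 in ctrl. Early ch+ cells had 7.77, 7.82 and 8.01 with HL60 and 7.74, 7.94 and 8.24 with ML1. Late cells had 7.29, 7.29 and 8.07 with HL60 and 3.74, 4.40 and 5.62 with ML1. All ch+ libraries thus lay above all ctrl and all ch- libraries (6.84 to 7.56), and the late libraries split by cell line, HL60 just above ctrl and ML1 far below. The early difference did not pass the test, with 0.84 for HL60 (adjusted p = 0.222) and 0.95 for ML1 (adjusted p = 0.142), but over both lines it passed when only ch+ and ctrl libraries were fitted (0.90, adjusted p = 0.0377). In late ML1 *Mfap5* fell by 2.44 from ctrl (adjusted p = 4.37e-06), whereas late HL60 was 0.53 above ctrl (95% interval -0.19 to 1.25). Over both lines the late difference from ctrl was -0.95 (adjusted p = 0.288). It passed with the average over the lines (adjusted p = 0.0282) and without late HL60 replicate 398 (-1.35, adjusted p = 0.0672). Pooled over the lines, it fell by 1.85 from early ch+ to late (adjusted p = 0.00432), the means going from 7.87 to 7.55 with HL60 and from 7.97 to 4.59 with ML1.

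*Mfap4*, a fibrinogen-like glycoprotein that binds both fibrillin and elastin, was the lowest gene per kilobase in ctrl, at 4.20, 4.51 and 4.96 without the scaling by length. With HL60 it was 5.20, 5.30 and 6.07 in ch-, 4.75, 5.57 and 5.84 in ch+ and 6.31, 6.91 and 7.05 in late cells. With ML1 it was 3.15, 3.26 and 3.92 in ch-, 3.02, 3.12 and 3.80 in ch+ and 3.40, 3.77 and 4.55 in late cells. At each of the 3 positions every HL60 library was above every ML1 library. *Mfap4* rose by 2.20 in late HL60 (95% interval 1.34 to 3.06, adjusted p = 0.000457), and late ML1 was -0.65 from ctrl (adjusted p = 0.340). Over both lines late cells were 0.98 above ch+ cells (adjusted p = 0.338), which passed with the average over the lines (adjusted p = 0.0198). In ch+ ML1 cells it fell by 1.24 (adjusted p = 0.0962). That call was lost without ctrl replicate 373 (-1.27, adjusted p = 0.159), ctrl replicate 374 (-1.04, adjusted p = 0.275), ch+ ML1 replicate 539 (-1.09, adjusted p = 0.263) or replicate 541 (-1.14, adjusted p = 0.216), with no filter (adjusted p = 0.151) and with equal totals (-1.19, adjusted p = 0.132).

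*Eln*, the elastic core itself, varied widely between libraries of a group. It was 5.81, 7.73 and 8.10 in ctrl, 7.43, 7.55 and 7.77 in late HL60 and 5.67, 5.74 and 6.35 in late ML1. Late HL60 lay inside the ctrl range, and late ML1 reached from below it to just above its lowest library. The difference of late ML1 from ctrl was -1.30 (95% interval -2.28 to -0.32) with an adjusted p of 0.0603. The call was lost without ctrl replicate 373 (-0.85, adjusted p = 0.305) or 374 (-1.04, adjusted p = 0.219) and without late ML1 replicate 581 (-1.21, adjusted p = 0.156) or 582 (-1.17, adjusted p = 0.179), as well as with no filter (adjusted p = 0.198), with equal totals (-0.48, adjusted p = 0.386) and with no trend (adjusted p = 0.118). Without ctrl replicate 375, the lowest of ctrl, the difference was -1.998, and the size of the *Eln* difference depends on single libraries. Over both lines its late difference was -0.47 (95% interval -1.48 to 0.55), and 0.23 with libraries brought to the same total. Early libraries ran from 6.47 to 8.38 in ch- and from 5.62 to 7.50 in ch+.

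Among the fibulins that bring elastin to microfibrils, *Fbln5* (fibulin-5), which links tropoelastin to the scaffold and to integrins, rose in late and *Efemp2* did not pass. *Fbln5* was 10.21, 10.39 and 10.92 in ctrl. In ch+ cells it was 10.86, 11.05 and 11.18 with HL60 and 11.53, 11.68 and 11.90 with ML1, and in late cells 12.01, 12.14 and 12.24 with HL60 and between 10.87 and 11.03 with ML1. Late HL60 and ch+ ML1 lay wholly above ctrl, while late ML1 and ch+ HL60 touched its highest library. *Fbln5* rose by 1.04 in late (adjusted p = 0.0168; 0.89 and adjusted p = 0.104 without ctrl replicate 374), with 1.63 for HL60 (adjusted p = 2.49e-06) and 0.46 for ML1 (adjusted p = 0.153). The order of the lines was the opposite in ch+ cells, where *Fbln5* rose with ML1 (95% interval 0.76 to 1.64, adjusted p = 0.000578) and was 0.53 above ctrl with HL60 (adjusted p = 0.204).

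*Efemp2*, which brings lysyl oxidase to tropoelastin, stayed between 8.58 and 9.48 in all 21 libraries, the narrowest range of the 10 genes. Its late difference was -0.18 (95% interval -0.56 to 0.21), and with libraries brought to the same total the value for Efemp2, late against ctrl, was 0.51 (adjusted p = 0.0326), beside the same median of 0.71. By line, late HL60 (8.87 to 9.48) overlapped with ctrl (9.04 to 9.40) and late ML1 (8.84 to 8.98) lay below it, with differences of -0.01 (adjusted p = 0.992) and -0.35 (adjusted p = 0.283).

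*Fbln1* (fibulin-1), found in elastic fibres and basement membranes, was 6.87, 7.40 and 7.76 in ctrl. It was 6.22, 6.43 and 7.26 in ch- HL60 and 7.17, 7.34 and 7.73 in ch- ML1. In ch+ cells it was 7.81, 7.96 and 8.18 with HL60 and 7.56, 7.62 and 8.10 with ML1. The early groups overlapped with ctrl in part, and ch+ HL60 alone lay wholly above it. Late cells had 8.79, 8.85 and 9.51 with HL60 and 8.49, 8.98 and 9.12 with ML1, above every other library. *Fbln1* rose by 1.62 in late (95% interval 1.05 to 2.18, adjusted p = 7.03e-05), by 1.71 with HL60 (adjusted p = 0.000101) and 1.52 with ML1 (adjusted p = 0.00021), and by 1.09 from early ch+ to late (adjusted p = 0.000698).

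*Fbln2* (fibulin-2), which binds fibrillin and elastin in vessel walls and other matrices, was 8.05, 8.20 and 9.05 in ctrl, 7.61, 7.74 and 8.68 in late HL60 and 6.29, 7.10 and 7.34 in late ML1. Late ML1 lay below ctrl and late HL60 overlapped with it. *Fbln2* fell by 1.53 in late ML1 (adjusted p = 0.00371) and was -0.42 from ctrl in late HL60 (adjusted p = 0.588). Over both lines it fell by 0.97 (adjusted p = 0.0781). That pooled call was lost without ctrl replicate 373 (-1.09, adjusted p = 0.105) or 374 (-0.67, adjusted p = 0.360) and without late ML1 replicate 581 (-0.95, adjusted p = 0.116), 582 (-0.74, adjusted p = 0.180) or 583 (-0.90, adjusted p = 0.132). It was lost also with libraries brought to the same total (-0.28, adjusted p = 0.491), with no filter (adjusted p = 0.217), after quantile normalization (0.101), with no trend (0.128), in a robust fit (0.106) and with only these groups in the fit (0.104). The late ML1 call was lost with equal totals (-0.71, adjusted p = 0.101). From early ch+ to late the gene fell by 0.90 (adjusted p = 0.0452). That call was lost without late ML1 replicate 582 (-0.66, adjusted p = 0.151), ch+ HL60 replicate 524 (-0.82, adjusted p = 0.103) or ch+ ML1 replicate 541 (-0.74, adjusted p = 0.129), with no filter (adjusted p = 0.158) and with equal totals (-0.28, adjusted p = 0.382). In all, 5 of the 10 genes passed between late and early ch+ cells, 2 higher (8.79% of all genes) and 3 lower (10.9%) in late, where 19.7% of all genes passed. With equal totals 6 were higher, near the 65.1% of all genes that were, and 2 lower (4.53%).

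**Figure D2:**
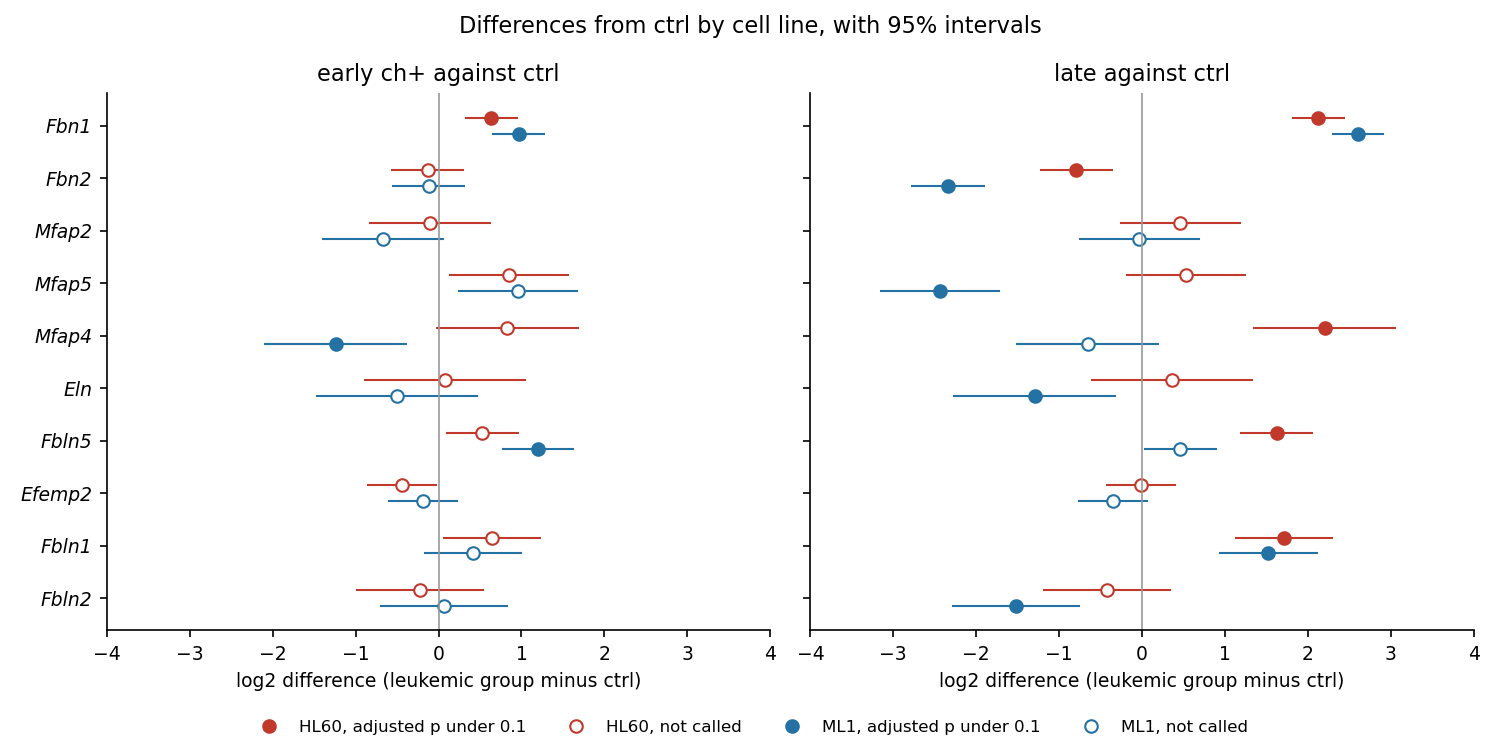
Log2 difference of early ch+ cells (left) and late cells (right) from ctrl for each gene, HL60 in red and ML1 in blue, with 95% intervals from the limma fit of 7 groups, filled where the adjusted p was under 0.1. Late *Fbn1* and *Fbln1* are higher with both lines, at 2.13 and 2.60 for *Fbn1*, and *Fbn2* is lower with both, although with libraries brought to the same total it did not pass for HL60.

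At the early stage the question was whether cells that had taken up sLP-mCherry already differ. Against ctrl, 1 of the 10 genes passed in ch+ cells (background 6.17%, of which 3.41% higher and 2.75% lower). This was *Fbn1*, which rose by 0.80 (adjusted p = 0.0143), higher than all ctrl libraries in 6 of 6 libraries. Without ctrl replicate 374 the difference was 0.67 with an adjusted p of 0.121. Over both lines *Fbln5* was 0.86 above ctrl (adjusted p = 0.123) and *Mfap5* 0.90 (adjusted p = 0.450). Both passed with only the groups compared (adjusted p = 0.00675 and 0.0377), making 3 genes (background 5.97%). They did so too with the average over the lines (adjusted p = 0.00322 and 0.0874), again making 3 genes (background 8.18%). By line, 1 of 10 passed in ch+ HL60 (background 5.33%) and 3 of 10 in ch+ ML1 (background 6.69%), namely *Fbn1*, *Fbln5* and, lower, *Mfap4*. *Fbn1* was 0.63 higher with HL60 (adjusted p = 0.0158; 0.50 and adjusted p = 0.120 without ctrl replicate 374, adjusted p = 0.105 with no filter and 0.147 with no trend) and 0.97 higher with ML1 (adjusted p = 0.000143).

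In ch- cells none of the 10 genes passed against ctrl in limma (background 1.92%), and 0 had an unadjusted p under 0.05. The same count of 0 was found for ch- HL60 (background 1.57%), where 2 had an unadjusted p under 0.05. In ch- ML1 1 gene passed (background 2.34%), *Fbn1*, with a difference of 0.53 (adjusted p = 0.0843). This call was lost without ctrl replicate 374 (0.40, adjusted p = 0.321) or 375 (0.49, adjusted p = 0.206) and without ch- ML1 replicate 544 (0.40, adjusted p = 0.325) or 546 (0.49, adjusted p = 0.206), with no filter (adjusted p = 0.269), after quantile normalization (0.111), with equal totals (0.294) and with no trend (0.292).

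Compared directly between ch+ and ch- cells, 2 of the 10 genes passed (background 6.26%), both higher in ch+ (3.58% of all genes were higher and 2.68% lower). *Fbln1* was 0.85 higher (95% interval 0.39 to 1.31, adjusted p = 0.0214) and *Fbn1* 0.56 higher (95% interval 0.23 to 0.89, adjusted p = 0.0355; 0.45 and adjusted p = 0.129 without ch- HL60 replicate 528, adjusted p = 0.137 with no filter and 0.121 with no trend). In a fit of the early libraries alone 4 passed (background 6.67%), all higher in ch+ (3.55% of all genes were higher and 3.12% lower), the others being *Mfap5* (0.71, adjusted p = 0.0306) and *Fbln5* (0.70, adjusted p = 0.0325). Within HL60 3 of 10 passed (background 3.92%), with *Fbln1* 1.35 (adjusted p = 0.00498), *Fbn1* 0.69 (adjusted p = 0.00789) and *Fbln5* 0.70 higher (adjusted p = 0.0815). Without ch- HL60 replicate 528 these *Fbn1* and *Fbln5* calls were lost (0.55, adjusted p = 0.108, and 0.43, adjusted p = 0.487), as they were with no trend (adjusted p = 0.127 and 0.274). Within ML1 1 of 10 passed (background 4.25%), again *Fbln5*, 0.71 higher (adjusted p = 0.0734). These *Fbln5* calls within a line were lost on leaving out any of 5 of the 6 libraries in HL60 (0.43 to 0.78) and any of 3 of the 6 in ML1 (0.41 to 0.72), with no filter (adjusted p = 0.305 and 0.291), after quantile normalization (0.107 and 0.117) and, in ML1, with no trend (0.237). The difference between the lines in this contrast passed for none of the 10 genes in limma (background 0.00771%), and 1 had an unadjusted p under 0.05. This was *Fbln1*, 1.35 with HL60 and 0.35 with ML1 (adjusted p = 0.663), a difference of 1.00 (95% interval 0.16 to 1.84, adjusted p = 0.707).

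Cell type markers also differed between ch+ and ch- cells. All 6 chondrocyte markers were lower in ch+, with sums of 12.84 to 14.57 against 14.93 to 16.22 in ch-. Smooth muscle markers were lower in 5 of 6, with sums of 11.52 to 12.45 against 12.94 to 13.84. Of 4 Schwann cell markers 3 were lower and 1 higher, 2 of 4 pericyte markers and 1 of 2 tested tendon markers were lower, and 2 of 6 tested fibroblast markers were higher, among them *Ly6a* by 2.24. Of 7 reticular stroma markers 1 was higher, *Cxcl12* by 0.46. Whether these shifts bear on *Fbln1* and *Fbn1* was not tested.

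The niches of the cell lines were set against each other at each position. In late cells 5 of the 10 genes passed (background 4.09%, of which 3.16% higher and 0.932% lower), and all 5 were higher with HL60: *Mfap5* by 2.97 (95% interval 2.24 to 3.69, adjusted p = 7.49e-07), *Mfap4* by 2.85 (1.99 to 3.72, adjusted p = 2.57e-05), *Eln* by 1.66 (0.68 to 2.64, adjusted p = 0.0511), *Fbn2* by 1.55 (1.11 to 1.99, adjusted p = 1.05e-05) and *Fbln5* by 1.17 (0.73 to 1.60, adjusted p = 0.000643). The median difference of the 10 genes was 1.13 and that of all tested genes 0.00. The *Fbn1* difference was -0.48 (adjusted p = 0.109) and *Fbln1* differed by 0.19 (95% interval -0.41 to 0.78). The *Eln* call was lost without late ML1 replicate 581 (1.57, adjusted p = 0.177) or 582 (1.54, adjusted p = 0.195) and without late HL60 replicate 397 (1.68, adjusted p = 0.134) or 398 (1.57, adjusted p = 0.197), with no filter (adjusted p = 0.286), equal totals (1.42, adjusted p = 0.114) and no trend (adjusted p = 0.161). The split depends on scaling, as 5 were higher and 1 lower after quantile normalization (2.9% and 1.06% of all genes) and 4 higher and 1 lower with equal totals (2.01% and 3.42%).

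At the early stage fewer differences between the lines (HL60 minus ML1) passed. In ch+ cells none passed in limma (background 0.0154%) and 3 had an unadjusted p under 0.05. These were *Mfap4* with 2.07 (adjusted p = 0.137), *Fbln5* with -0.67 (adjusted p = 0.530) and *Fbn1* with -0.33 (adjusted p = 0.628). The share of all genes under 0.05 is not given, so this count and that for ch- cells are not read as a result. In ch- cells 1 passed (background 0.0539%), *Mfap4* with 2.08 (adjusted p = 0.0882), and 4 had an unadjusted p under 0.05. The others were *Fbln1* (-0.78), *Fbln5* (-0.67) and *Fbn1* (-0.59), and the median absolute difference of the 10 genes was 0.46, beside 0.25 over all genes. The call for Mfap4, HL60 against ML1 in early ch-, was lost without ch- HL60 replicate 527 (1.81, adjusted p = 0.283), 528 (2.25, adjusted p = 0.190) or 529 (2.19, adjusted p = 0.106) and without ch- ML1 replicate 543 (1.99, adjusted p = 0.294) or 546 (1.94, adjusted p = 0.224), with no filter (adjusted p = 0.193) and with no trend (adjusted p = 0.132).

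Marker counts are to be read against the 21.5% of all genes that passed in late, 6.17% in ch+ and 1.92% in ch-, relative to ctrl. Of 7 osteoblast markers, 6 fell in late cells, and in ch+ 0 passed in limma, with 0 at an unadjusted p under 0.05. All 7 were higher in late HL60 than in late ML1. Their summed level (log2) was 20.23, 20.38 and 20.68 in ctrl, 19.81 to 20.05 in ch+, 18.53, 18.85 and 18.88 in late HL60 and 15.92, 16.19 and 16.74 in late ML1, with *Col1a1* the most abundant and none of the 7 near 0. By group mean, *Fbn2*, *Fbln2*, *Mfap5* and *Eln* were also lowest in late ML1, although *Eln* libraries there overlapped with ctrl. Between the late lines, 2 of 6 chondrocyte markers were also higher with HL60 (sums 13.10 to 13.76 against 11.30 to 11.97). So was 1 of 2 tested tendon markers (10.86 to 11.27 against 8.91 to 9.57). Of 6 tested fibroblast, 6 smooth muscle and 4 Schwann cell markers 1 each was higher. In the other lists none passed, where 4.09% of all genes did. All 6 chondrocyte markers fell in late and in early ch+ cells; their sum, led by *Col2a1*, was 15.99 to 17.12 in ctrl, 12.84 to 14.57 in ch+ and 11.30 to 13.76 in late, with none near 0. Of 7 reticular stroma markers 5 were higher and 1 lower in late and 5 higher in ch+ relative to ctrl. In ch+ against ch- cells 1 was higher, and in late against ch+ cells 3 were higher and 2 lower. Their sum, led by *Cxcl12*, was 15.43 to 16.07 in ctrl, 16.19 to 16.79 in ch+ and 16.68 to 17.00 in late. *Lepr* had a mean of 13.27 ± 0.32 in ch+ and 14.57 ± 0.22 in late (SD, n = 6 each). Between late and ch+ cells (19.7% of all genes passed), 6 of 7 osteoblast, 4 of 6 tested fibroblast and 3 of 6 endothelial markers were lower. So were all 9 myeloid, 5 tested red cell and 4 tested skeletal muscle markers. Higher were 4 of 6 smooth muscle, 3 of 4 pericyte and 1 of 2 tested tendon markers. Of 6 chondrocyte markers 1 was lower, and of 4 Schwann cell markers 2 were higher and 1 lower.

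Markers of the walls of vessels and of soft tissue moved less uniformly. Of 6 smooth muscle markers, 4 fell in late and 5 in ch+, and their sum was 13.52 to 14.67 in ctrl, 11.52 to 12.45 in ch+ and 12.24 to 13.09 in late, led by *Myh11* in ctrl and by *Mylk* in the others. Of 4 pericyte markers, 2 rose and 1 fell in late and 2 fell in ch+ (sums 13.33 to 13.69 in ctrl, 12.74 to 12.89 in ch+ and 13.46 to 13.74 in late, led by *Rgs5* and, in late, by *Notch3*). Of 6 tested fibroblast markers, 2 fell in late and 2 rose in ch+ (sums 9.84 to 10.50, 8.24 to 9.55 in late and 10.66 to 11.62 in ch+, led by *Ly6a*). The 2 tested tendon markers went apart in late, and 1 fell in ch+ (sums 11.59 to 12.87 in ctrl, 8.91 to 11.27 in late and 9.29 to 10.68 in ch+, led by *Fmod*). Of 4 Schwann cell markers 1 fell in late and 3 in ch+, and their sum, led by *S100b*, was 8.40 to 8.65 in ctrl, 7.77 to 8.82 in ch+, around the ctrl range, and 7.48 to 8.48 in late. None of 6 endothelial markers passed in late or ch+ in limma, with 1 and 0 at an unadjusted p under 0.05 (sums 7.81 to 8.24 in ctrl, 7.77 to 8.61 in ch+ and 7.32 to 8.17 in late, led by *Cdh5*).

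Myeloid and red cell markers were higher in both early groups. All 9 myeloid markers rose in ch+ and 8 of 9 in ch- cells, from a sum of 8.09 to 9.32 in ctrl to 10.27 to 11.57 in ch+ and 10.70 to 11.73 in ch-, led by *S100a9* or *Lyz2*, although hematopoietic cells had been removed with magnetic beads and the rest stained for CD45 and Ter119 before the sort. All 5 tested red cell markers rose in both (sums 8.13 to 9.26 in ctrl, 11.93 to 13.49 in ch+ and 12.14 to 13.19 in ch-, led by *Hbb-bs*), while *Ptprc*, the pan-leukocyte gene, had a median of 4.88 in ch+ and 4.18 in ch- against 2.58 in ctrl, with 2.44 in late. Of 4 tested skeletal muscle markers, all 4 rose in ch+. In ch- 0 passed against ctrl in limma, with 3 at an unadjusted p under 0.05 and a median difference of 1.33, and between ch+ and ch- 0 passed, again with 3 at an unadjusted p under 0.05 (sums 4.92 to 6.83 in ctrl, 6.91 to 8.99 in ch+ and 6.23 to 8.17 in ch-, led by *Acta1*), *Myh4* being near 0 in ctrl. The 1 tested megakaryocyte marker, *Ppbp*, passed in none of these comparisons with ctrl. In late cells 3 of 9 myeloid, 3 of 5 red cell and 1 of 4 skeletal muscle markers fell (sums 6.87 to 8.06, 6.14 to 6.64 and 4.72 to 4.85). What part any of these cells had in the values of the matrix genes was not tested.

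Likeness over the 21 libraries places the genes by their pattern. The genes most like *Fbn1* were *Lepr* (Pearson's r = 0.982), *Nid1* (0.977) and *Lama4* (0.971), the last 2 encoding basement membrane proteins. Those most like *Fbn2* were *Ccdc194* (0.964), *Bmp3* (0.961) and *Car3* (0.959). *Fbln1* was nearest to *Fam102b* (0.912), *Foxp1* (0.901) and *Tgm2* (0.896), and *Fbln5* to *Sfrp2* (0.878), *Igf1* (0.858) and *Ghr* (0.851). These values describe libraries that share groups and normalization. *Mfap5* was nearest to *Cd59a* (0.871), *Gsn* (0.865) and *Ccn3* (0.854), and *Fbln2* to *St3gal5* (0.828), *Hspb7* (0.828) and *Thbs4* (0.825). *Mfap4* was nearest to *Slc20a2* (0.787), *Fndc1* (0.763) and *Sspn* (0.755), and *Eln* to *Dstn* (0.778), *Grcc10* (0.762) and *Gdi2* (0.760). The lowest values were those of *Mfap2*, at most 0.740 (*Gpat4*, then *Pcgf2* and *Atg101*) and *Efemp2* at most 0.685 (*Eif4ebp2*, then *Ebf2* and *Shroom1*).

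Proteins that cross-link, bind or degrade elastic fibres were followed in lists of 51 further genes, of which 45 were tested. In late cells 22 passed against ctrl, 10 higher and 12 lower, where 21.5% of all genes passed; the median of the 45 was -0.18, beside 0.02 over all genes. With libraries brought to the same total, 23 of the 45 were higher, no larger a share than the 60% of all genes, and 8 lower (3.98%). In late HL60 alone, without that step, 7 were higher and 11 lower, where 6.46% and 7.24% of all genes were. In late ML1 alone 10 were higher and 16 lower (9.89% and 12.1% of all genes). With equal totals, 20 were higher and 7 lower in late HL60 (39.7% and 2.92% of all genes). In late ML1 the counts were then 24 and 9 (63% and 4.7%). Of the 19 genes named by rule for late against ctrl, 14 kept their call whichever library was dropped, and these are the ones given below. The other 5, *Adamts6*, *Thsd4*, *Itgav*, *Mmp9* and *Ctsl*, lost it without at least 1 library.

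Of 5 cross-linking enzymes, 4 passed in late cells. *Loxl1*, the lysyl oxidase-like enzyme tied to elastin renewal, rose by 1.71 (adjusted p = 2.33e-06) from 8.63 to 9.53 in ctrl libraries to 10.41 to 10.88 in late ones. *Loxl4* fell by 2.03 (adjusted p = 3.16e-07). *Lox* itself fell by 0.86 (adjusted p = 0.000104; -0.17 and adjusted p = 0.309 with libraries brought to the same total), so that enzymes of 1 family went both ways. Of 7 tested other fibulins and emilins, 2 passed, not far from the 21.5% of all genes, and both were lower: *Fbln7* fell by 3.05 (adjusted p = 1.07e-06) and *Emilin2*, an elastin microfibril interface protein, fell by 1.36 (adjusted p = 0.00202).

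Among 7 latent TGF-β binding proteins and ligands, the 3 that passed in late all rose, where 21.5% of all genes passed and 10.2% rose. With equal totals 60% of all genes were higher. *Tgfb3*, a ligand stored on microfibrils in latent form, rose by 1.74 (adjusted p = 1.66e-06), and every late library (10.06 to 10.88) was above every ctrl library (8.75 to 8.97). *Ltbp2* and *Ltbp1*, which bind fibrillin-1, rose by 1.34 (adjusted p = 7.11e-05) and 0.91 (adjusted p = 1.61e-05). Of 6 tested ADAMTS and ADAMTSL proteins of the microfibril 3 passed, 2 higher and 1 lower, with *Adamtsl4*, which promotes fibrillin-1 deposition, up by 1.91 (adjusted p = 0.00108).

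Surface proteins of the microfibril fell for the most part, 4 of 6 being lower and 1 higher in late, where 11.4% and 10.2% of all genes were. Fibronectin (*Fn1*), the fibrils of which fibrillin assembly needs in culture, fell by 2.43 (adjusted p = 1.85e-08), decorin (*Dcn*) by 2.12 (adjusted p = 1.18e-05) and tenascin-X (*Tnxb*) by 2.01 (adjusted p = 0.000127). Of 9 integrins and elastin receptor subunits 2 passed, 1 in each direction, which is the background share of 21.5%. Of these *Itgb8*, a chain of an integrin that activates latent TGF-β, fell by 2.27 (adjusted p = 2.33e-05). Of 5 tested elastin-degrading proteases 3 passed, 2 higher and 1 lower, and *Mmp2* fell by 1.06 (adjusted p = 0.000381).

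**Figure D3:**
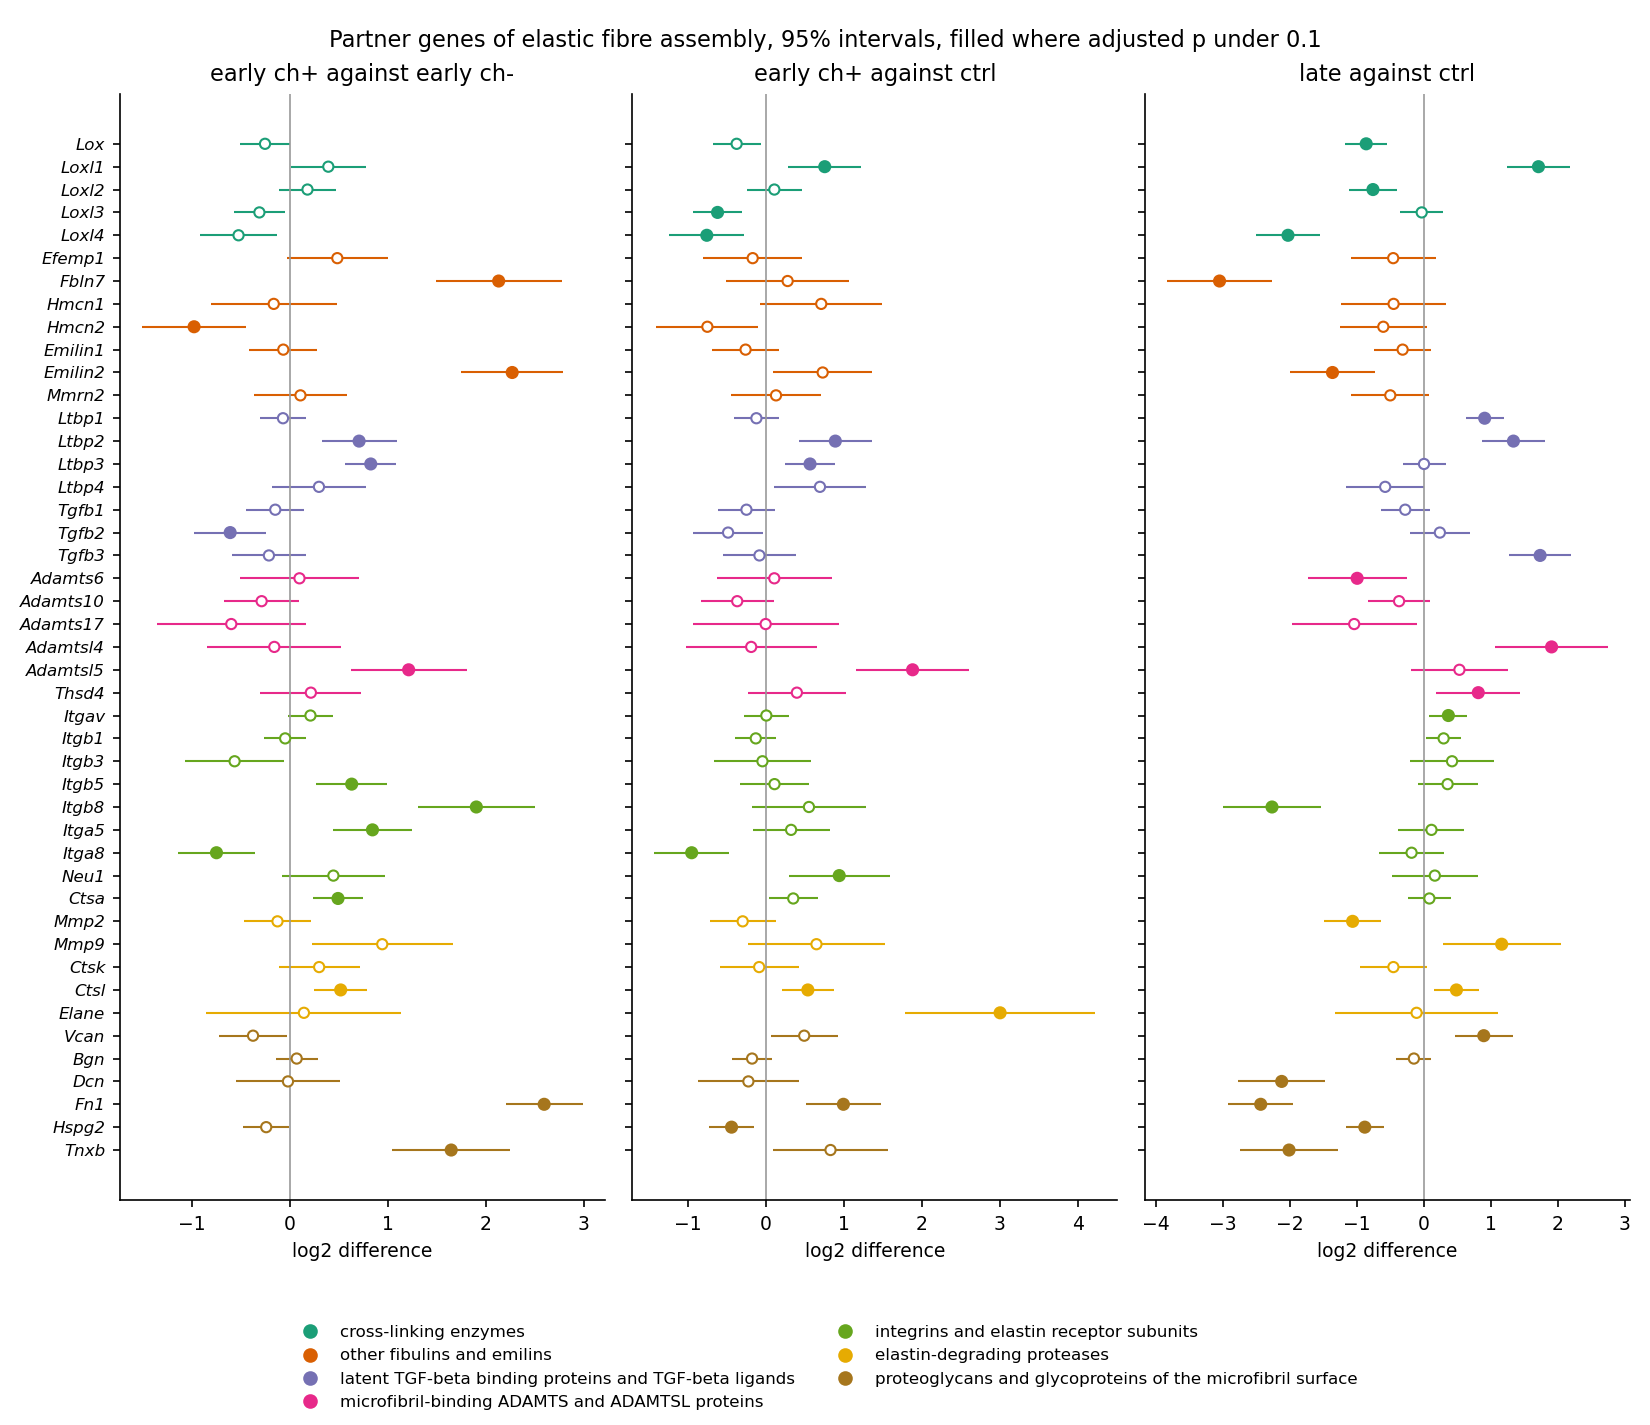
Log2 difference of the 45 tested partner genes in ch+ against ch- cells, ch+ against ctrl and late against ctrl, coloured by list, with 95% intervals, filled where the adjusted p was under 0.1. *Fn1*, *Fbln7* and *Itgb8* are higher in ch+ than in ch- cells and lower in late than in ctrl cells.

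At the early stage the partner genes were also compared between ch+ and ch- cells. Between these, 15 of 45 passed (12 higher and 3 lower in ch+; 6.26% of all genes passed), against 12 for ch+ and 6 for ch- relative to ctrl, where 6.17% and 1.92% of all genes passed. *Fn1* had the largest difference among the 45, at 2.59 (adjusted p = 2.7e-10), with ctrl libraries at 16.40 to 16.76, ch- at 14.76 to 15.20, ch+ at 17.23 to 18.20 and late at 13.44 to 14.89. Only the late and ch- ranges of *Fn1* overlap. *Emilin2* was 2.27 higher (adjusted p = 3.12e-07), *Fbln7* 2.13 (adjusted p = 2.66e-05), *Itgb8* 1.90 (adjusted p = 4.09e-05) and *Tnxb* 1.64 (adjusted p = 0.000363). Part of these gaps lies in ch- cells, which were below ctrl in *Fn1* (-1.60, adjusted p = 0.000118), *Fbln7* (-1.85, adjusted p = 0.00844), *Emilin2* (-1.54, adjusted p = 0.00607) and *Itgb8* (-1.35, adjusted p = 0.0527), genes picked here after their values were seen. The *Itgb8* call was lost without ctrl replicate 374 (-1.20, adjusted p = 0.254) or 375 (-1.05, adjusted p = 0.310), ch- HL60 replicate 529 (-1.24, adjusted p = 0.108) or ch- ML1 replicate 544 (-1.23, adjusted p = 0.117), and with no filter (adjusted p = 0.147). From ctrl to ch+ the differences of *Emilin2* (0.73, adjusted p = 0.221), *Itgb8* (0.55, adjusted p = 0.466), *Fbln7* (0.28, adjusted p = 0.775) and *Tnxb* (0.83, adjusted p = 0.231) did not pass. *Fbln7* means show both sides, ctrl being 9.54 ± 0.33 (SD, n = 3), ch- 7.69 ± 0.34, ch+ 9.82 ± 0.40 and late 6.49 ± 1.07 (SD, n = 6 each).

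Smaller differences between ch+ and ch- cells were found in *Adamtsl5* (1.21, adjusted p = 0.0091), a fibrillin-binding protein, in the fibronectin receptor chain *Itga5* (0.84, adjusted p = 0.00768), in *Ltbp3* (0.82, adjusted p = 5.51e-05) and *Ltbp2* (0.70, adjusted p = 0.0214; 0.110 with no filter), and in the lysosomal protease *Ctsl* (0.52, adjusted p = 0.0168). *Hmcn2* and *Itga8* were lower in ch+, at -0.98 (adjusted p = 0.0215) and -0.75 (adjusted p = 0.0151), as was *Tgfb2*, at -0.61 (adjusted p = 0.0454), a call lost without ch+ HL60 replicate 523 (-0.49, adjusted p = 0.134) or ch- HL60 replicate 527 (-0.52, adjusted p = 0.132) and with equal totals (-0.46, adjusted p = 0.206). Against ctrl, the partner genes of ch+ cells that kept their call whichever library was left out were 3 of 12; the others, which lost it without at least 1, were *Loxl1*, *Loxl3*, *Loxl4*, *Ltbp2*, *Ltbp3*, *Itga8*, *Neu1*, *Ctsl* and *Hspg2*. *Adamtsl5* rose by 1.88 (adjusted p = 0.00106), *Fn1* by 0.99 (adjusted p = 0.0109; 0.39 and adjusted p = 0.487 after quantile normalization), and *Elane*, neutrophil elastase, by 3.00 (adjusted p = 0.00198). *Elane* is a product of myeloid precursors and also on the myeloid marker list. It passed in ch- cells against ctrl as well (2.86, adjusted p = 0.00844). Its range in ch+ cells (3.99 to 6.74) overlapped with that in ch- cells (3.56 to 7.31), with a difference of 0.14 (adjusted p = 0.933). Between late and early ch+ cells 29 of 45 partner genes passed, 9 higher and 20 lower in late, where 19.7% of all genes passed (8.79% higher and 10.9% lower). With equal totals 22 were higher, a smaller share than the 65.1% of all genes, and 10 lower (4.53%).

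The 3 fibre genes called higher in late cells than in ctrl over both lines, *Fbn1*, *Fbln1* and *Fbln5* (the last not in late ML1 alone), were also set side by side by the 250 bases before a RefSeq start. Promoters of 6 of the 10 genes were taken from the RefSeq table (GRCm38.p6), those of *Fbn1*, *Fbln1*, *Fbln2*, *Fbln5*, *Mfap2* and *Efemp2*. Of the starts that table lists for a gene the most upstream was used. There was no entry for *Eln*, *Mfap4* or *Mfap5*, and *Fbn2* was left out of the search. The sequences run 5′ to 3′ on the strand of the gene, and capitals mark the matches, on either strand, to the motifs searched, none of which overlapped with another. The GC box bound by SP1 was searched as GGGCGG. The box bound by SMAD proteins, which act below TGF-β receptors, was searched as CAGAC. For the AP-1 transcription factors the letters were TGANTCA. For the TEAD factors of the Hippo pathway they were GGAATG. The box of the TATA-binding protein was searched with the letters TATAAA, and the CArG box of serum response factor by its usual pattern. *Fbn1* lies at chr2:125506439-125506688 on the minus strand, *Fbln1* at chr15:85205699-85205948 on the plus strand and *Fbln5* at chr12:101819120-101819369 on the minus strand, and 2 of these starts differ from the annotated start of the gene. The *Fbn1* start lies 1555 bases inside the annotated gene, which begins further upstream at 125507993, so that its window is within the gene, and 53 bases before the nearest annotated transcript start. The *Fbln5* start lies 64 bases before the annotated gene and was not found among the annotated transcripts, and that of *Fbln1* is the annotated one.
Fbn1: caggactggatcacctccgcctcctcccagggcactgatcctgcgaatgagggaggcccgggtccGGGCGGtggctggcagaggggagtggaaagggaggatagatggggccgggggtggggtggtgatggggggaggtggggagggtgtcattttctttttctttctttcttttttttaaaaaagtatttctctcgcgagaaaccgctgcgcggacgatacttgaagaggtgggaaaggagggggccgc
Fbln1: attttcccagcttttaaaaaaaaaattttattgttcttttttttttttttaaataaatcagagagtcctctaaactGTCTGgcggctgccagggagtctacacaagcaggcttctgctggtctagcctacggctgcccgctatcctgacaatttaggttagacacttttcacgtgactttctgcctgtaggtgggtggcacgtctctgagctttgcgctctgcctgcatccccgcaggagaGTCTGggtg
Fbln5: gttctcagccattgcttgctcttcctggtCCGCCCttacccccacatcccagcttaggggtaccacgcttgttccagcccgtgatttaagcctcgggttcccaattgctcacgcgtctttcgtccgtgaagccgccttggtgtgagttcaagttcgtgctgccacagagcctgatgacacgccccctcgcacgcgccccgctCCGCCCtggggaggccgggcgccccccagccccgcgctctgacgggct
The *Fbn1* window holds 1 GC box, that of *Fbln5* 2 GC boxes and that of *Fbln1* 2 SMAD boxes and no GC box. Among 27025 promoters of this length, 33% held a GC box, 42.2% a SMAD box, 13% a TATA box, 12.6% a TEAD site, 6.85% an AP-1 site and 1.41% a CArG box. The GC content was 59.2% in *Fbn1*, 65.2% in *Fbln5* and 46.4% in *Fbln1*, where the median promoter had 52%. No motif of the search was present in all 3 windows.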

How the data were processed

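RNA of sorted Nes low cells was sequenced in 21 libraries. The authors aligned reads to mm10 with STAR 2.5.1b, counted them with RSEM 1.2.29 and deposited a table of regularized log2 values from DESeq2 1.10.1, which were used as deposited. The labels and the methods of the study name different versions of that tool, and the methods another log base; the version is that of the labels, and log2 was taken from the range of the values. Whole reads, and so the depth of each library, could not be recovered. Genes with a mean of at least 3.32 entered linear models (R 4.3.3, limma 3.58.1, empirical Bayes step with a trend), once with 4 groups (ctrl, ch-, ch+, late) and once with 7 groups that keep HL60 and ML1 apart. All comparisons with ctrl share the same 3 libraries, and no correlation between comparisons was computed. P-values were adjusted by Benjamini-Hochberg over 12976 genes with a threshold of 0.1, and intervals are 95% intervals. All 10 fibre genes are named; of each partner list up to 3 passing genes with the largest absolute difference are named for late and ch+ against ctrl and for ch+ against ch-, and none for late against ch+. Against ctrl, values are given only for those whose call held without each library. Partner genes named in ch- against ctrl were chosen after seeing the data. The genes and lists were chosen with earlier results of these data known. Tables and figures were made with Python 3.11.15 and matplotlib 3.10.9. Alternatives to filter, normalization, trend, threshold and libraries were tried. Further controls of the study were not analysed.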

Additional observations from a re-analysis of the deposited data

Results flagged for a closer look

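*Eln* in early ch+ cells of ML1 replicate 538 was 5.62, with a gap to the next library that took 0.731 of the range of the 6 ch+ libraries. Of 30 groups searched for such a library 1 was marked, and chance marks about 1 in 20. The other results given here are differences between HL60 and ML1 that passed their test. In late cells they were *Fbln5* (1.17), *Fbn2* (1.55), *Eln* (1.66), *Mfap4* (2.85) and *Mfap5* (2.97), all higher with HL60. In early ch- cells it was *Mfap4* (2.08), also higher with HL60. Line and cohort, if the library numbers mark cohorts, cannot be told apart in any of them.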

How the results depend on the processing

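The alternatives were no filter, a strict filter, quantile normalization, equal library totals, no trend, a robust fit, only the groups compared, an average over the lines, an adjusted p under 0.05, and each library left out in turn. Those for single genes within a line and for single partner genes were chosen after seeing the data. *Fbn1*, *Fbln1* and *Fbn2* kept their late calls over both lines in all of them. With equal totals the late differences of *Eln* (0.23) and *Efemp2* (0.51) reversed, as did Fbln2, early ch+ against ctrl (0.000219), Mfap2, early ch- against ctrl (-0.0518), Fbn2, early ch+ against early ch- (0.0421), Mfap4, early ch+ against early ch- (0.0214), Efemp2, early ch+ against early ch- (0.0125), and *Eln* between late and ch+ (0.36). After quantile normalization Fbn2, early ch- against ctrl (0.0180) and Mfap2, early ch- against ctrl (-0.0146) reversed. The cause was not tested.

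Counts of called genes that moved by over 1.5 times were as follows. The share of all tested genes that passed in the same fit stands in brackets. For ch+ against ctrl (6.17%), 1 became 2 with equal totals (6.25%), 3 with only the groups compared (5.97%) and 3 with the average over the lines (8.18%); for ch+ against ch- (6.26%), 2 became 1 with no filter (2.67%), 1 with no trend (5.6%) and 4 with only the groups compared (6.67%); for late against ch+ (19.7%), 5 became 8 with equal totals (69.6%). For ch+ HL60 (5.33%), 1 became 0 with no filter (1.59%) and 0 with no trend (3.8%); for ch- ML1 (2.34%), 1 became 0 with no filter (0.663%), quantile normalization (2.31%), equal totals (2.6%), no trend (1.31%) and an adjusted p under 0.05 (1.37%). For ch+ against ch- in HL60 (3.92%), 3 became 1 with no trend (2.91%); in ML1 (4.25%), 1 became 0 with no filter (1.39%), quantile normalization (4.25%), no trend (3.15%) and an adjusted p under 0.05 (2.97%), and 2 with equal totals (5.83%). For HL60 against ML1 in ch- (0.0539%), 1 became 0 with no filter (0.00372%), no trend (0%) and an adjusted p under 0.05 (0%). Of partner genes in ch+ against ctrl, 12 became 6 with no filter (2.21%), 7 with no trend (5.19%) and 7 with an adjusted p under 0.05 (3.95%). The cause was not tested.

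With each library left out, the counts ran from 3 to 6 for late against ctrl (17% to 20.9% of all genes), 0 to 2 for ch+ (4.18% to 6.12%), ch+ HL60 (3.77% to 4.65%) and ch- ML1 (1.39% to 2.33%) against ctrl, 1 to 3 for ch+ against ch- (5.21% to 6.33%) and for the same in HL60 (2.27% to 3.54%), 0 to 2 for the same in ML1 (2.87% to 4.41%), and 0 to 1 for HL60 against ML1 in ch+ (0% to 0.0462%) and in ch- (0% to 0.0694%). Differences that reversed ran from -0.91 to 0.23 (*Eln*), -0.27 to 0.23 (*Fbln2*) and -0.50 to 0.0600 (Mfap4, early ch+ against ctrl) for ch+; from -0.44 to 0.71 (*Eln*), -0.21 to 0.10 (*Fbn2*), -0.0850 to 0.14 (Mfap2, early ch- against ctrl) and -0.39 to 0.19 (*Mfap4*) for ch- against ctrl; and from -0.43 to 0.19 (*Mfap4*) for ch+ against ch-. Replicate numbers are not shared between groups, so the labels give no pairing of ch+ and ch- libraries. Paired by the order of their numbers within a line, chosen after seeing the data, deviations from the group means correlated at most 0.0463 within a pair, and 4 genes passed with this replicate block (7.28% of all genes), the same count as with only the groups compared (6.67%). The depth of each library is unknown, so no counting interval could be given.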
